A study of Drosophila melanogaster with 3 samples.

Results

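Of the 24641 Chrac-16 peaks in the pooled relaxed list, 776 had their summit within 500 bp of an annotated transcript start of a long non-coding RNA (lncRNA) or antisense RNA (asRNA) gene. They were chosen by position alone: a summit in that range of a start, in the Ensembl annotation of the dm6 build, of a gene whose symbol begins with lncRNA: or asRNA:. Of these, 265 also lay within 500 bp of a protein-coding start and are called shared below, and the other 511 had no such start nearby and are called stand-alone. Chromatin immunoprecipitation followed by sequencing (ChIP-seq) had been carried out on whole Drosophila melanogaster embryos of mixed sex, 0 to 24 h old, of a transgenic line, Chrac-16-GFP, in which a C-terminal GFP is fused to Chrac-16. An antibody against GFP was used on chromatin sonicated to 200 to 800 bp, in 3 biological replicates that form 1 group, so no condition was compared with another. Every embryonic stage and tissue was mixed in each sample, so strong binding in few cells and weak binding in many cannot be told apart, and the state of the untagged Chrac-16 gene is not given in the sources used here.

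Chrac-16 is a small histone-fold protein that pairs with Chrac-14 in CHRAC, a chromatin remodeller in which the ATPase Iswi and Acf slide and space nucleosomes. Long non-coding RNA genes are transcribed by RNA polymerase II like coding genes. Some act through their RNA, as the roX RNAs do in dosage compensation of the X chromosome, whereas for many only the transcript is known. Antisense genes are transcribed from the strand opposite another gene, and fly promoters that face each other can share a short stretch of DNA.

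The windows of 100 bp on each side of the summit are printed first, because the letters under the summits, counted over all windows further below, differed between stand-alone and shared peaks. All are read 5′ to 3′ on the plus strand of the RefSeq Release 6 genome (dm6). Capitals mark CGATA, the core recognised by the insulator protein BEAF-32, and TATAAA, the TATA box, on either strand, so that TATCG and TTTATA are the same letters read from the other strand. The windows of 4 of the 5 strongest stand-alone peaks were the following.
lncRNA:CR44619, chrX:12752253-12752453: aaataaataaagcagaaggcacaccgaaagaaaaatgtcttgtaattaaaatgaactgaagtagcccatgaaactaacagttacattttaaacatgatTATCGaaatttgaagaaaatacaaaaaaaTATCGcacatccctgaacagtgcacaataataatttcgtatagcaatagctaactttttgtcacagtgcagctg
lncRNA:CR31044, chr3R:29214351-29214551: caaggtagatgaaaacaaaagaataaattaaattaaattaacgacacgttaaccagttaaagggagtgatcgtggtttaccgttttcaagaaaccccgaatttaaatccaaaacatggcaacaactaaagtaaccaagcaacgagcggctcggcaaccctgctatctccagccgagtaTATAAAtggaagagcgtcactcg
lncRNA:CR44676, chr3L:19560704-19560904: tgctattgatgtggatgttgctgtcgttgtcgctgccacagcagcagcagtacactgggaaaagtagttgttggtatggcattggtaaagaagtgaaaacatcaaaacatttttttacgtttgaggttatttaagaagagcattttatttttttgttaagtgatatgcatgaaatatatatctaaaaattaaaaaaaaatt
lncRNA:CR46036, chr3R:17700478-17700678: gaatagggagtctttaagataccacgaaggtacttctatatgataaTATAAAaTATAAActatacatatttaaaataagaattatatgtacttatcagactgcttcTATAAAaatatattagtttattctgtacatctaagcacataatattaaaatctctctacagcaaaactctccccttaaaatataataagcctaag
The first held 2 CGATA matches on the strand opposite its gene and no TATAAA. The second held 1 TATAAA on the strand of its gene, its first base at -33 bp from the annotated start of CR31044. The third held neither, and the fourth held 3 TATAAA matches, the nearest to the start at -157 bp.

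For contrast, 3 of the 6 strongest shared peaks are given, a set added after the values had been seen.
lncRNA:CR44149, chr2L:9568626-9568826: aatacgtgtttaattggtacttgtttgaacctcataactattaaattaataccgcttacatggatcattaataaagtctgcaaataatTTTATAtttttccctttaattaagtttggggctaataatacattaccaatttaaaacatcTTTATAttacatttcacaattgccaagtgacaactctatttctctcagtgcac
lncRNA:enrr, chrX:523378-523578: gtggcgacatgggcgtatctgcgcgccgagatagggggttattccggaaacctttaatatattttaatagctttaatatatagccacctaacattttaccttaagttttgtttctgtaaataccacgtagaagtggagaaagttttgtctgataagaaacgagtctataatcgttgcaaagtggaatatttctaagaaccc
lncRNA:CR44522, chr3L:6262808-6263008: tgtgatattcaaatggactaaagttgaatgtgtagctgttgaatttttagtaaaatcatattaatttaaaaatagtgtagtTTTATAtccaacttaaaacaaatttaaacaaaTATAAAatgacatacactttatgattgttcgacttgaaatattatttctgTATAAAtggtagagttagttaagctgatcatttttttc
These windows held 2, 0 and 3 copies of TATAAA and none of CGATA. Over all windows CGATA was more frequent at shared (36.6%) than at stand-alone peaks (18.6%), so these examples do not show the class difference. The strongest peaks of the named genes Hsromega, flam and roX1 had the following windows.
lncRNA:Hsromega, chr3R:21296223-21296423: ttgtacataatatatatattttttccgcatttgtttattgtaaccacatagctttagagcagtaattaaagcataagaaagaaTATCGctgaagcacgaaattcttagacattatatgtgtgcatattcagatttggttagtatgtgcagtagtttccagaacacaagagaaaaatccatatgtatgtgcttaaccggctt
lncRNA:flam, chrX:21631561-21631761: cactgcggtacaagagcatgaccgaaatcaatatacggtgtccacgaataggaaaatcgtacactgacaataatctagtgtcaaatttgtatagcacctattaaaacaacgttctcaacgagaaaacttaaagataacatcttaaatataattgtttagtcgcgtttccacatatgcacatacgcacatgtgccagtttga
lncRNA:roX1, chrX:3862431-3862631: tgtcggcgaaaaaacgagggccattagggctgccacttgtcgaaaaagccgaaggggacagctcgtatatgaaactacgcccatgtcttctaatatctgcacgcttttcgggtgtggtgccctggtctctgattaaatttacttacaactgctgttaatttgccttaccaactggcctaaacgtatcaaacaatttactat
The Hsromega window held 1 CGATA match and those of flam and roX1 held no match of either kind. The G and C content of these 10 windows ranged from 22.9% at CR44522 to 44.8% at roX1, against a median of 38.8% over the windows of all pooled peaks.

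The values are peak signals from the authors' deposited peak lists, on a scale that is the authors' own and differs between the pooled list and the lists of single replicates. The lists give no read counts, so depth is unknown. The optimal list, which the authors derived by the IDR procedure that ranks peaks by their agreement between replicates, held 4941 peaks. On the pooled scale it began at a signal of 99.55, and the strongest peak outside it had 99.48, so membership is in effect a threshold on pooled signal. Lists of 30000, 24619 and 29140 peaks were available for replicates 1, 2 and 3. Peaks are not replicates, and the intervals given with shares are exact 95% binomial intervals that cover counting error only. The spread between replicates is given as the SD over the 3 replicates, for which an exact sign-flip permutation test, two-sided, cannot give a p below 0.25. Nothing in the labels beyond the biological replicate number says whether the embryo collections were separate.

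Peaks at lncRNA and asRNA starts were divided in strength by whether a coding start was nearby. Of the 511 stand-alone peaks, 106 were in the optimal list (20.7%, interval 17.3 to 24.5), a share near the 20.1% of all pooled peaks. Of the 265 shared peaks, 90 were in it (34.0%, 28.3 to 40.0), close to the 33.0% (31.9 to 34.1) of the 7060 peaks that had a coding start and no lncRNA or asRNA start. The 16631 peaks with no start of any gene within 500 bp had the lower share of 14.4% (13.9 to 14.9). Together, 196 of the 776 peaks at lncRNA or asRNA starts were in the optimal list (25.3%). The median pooled signal was 47.1 for stand-alone peaks, 68.6 for shared peaks and 64.5 for peaks at coding starts only, beside 47.1 over all pooled peaks.

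**Figure D1:**
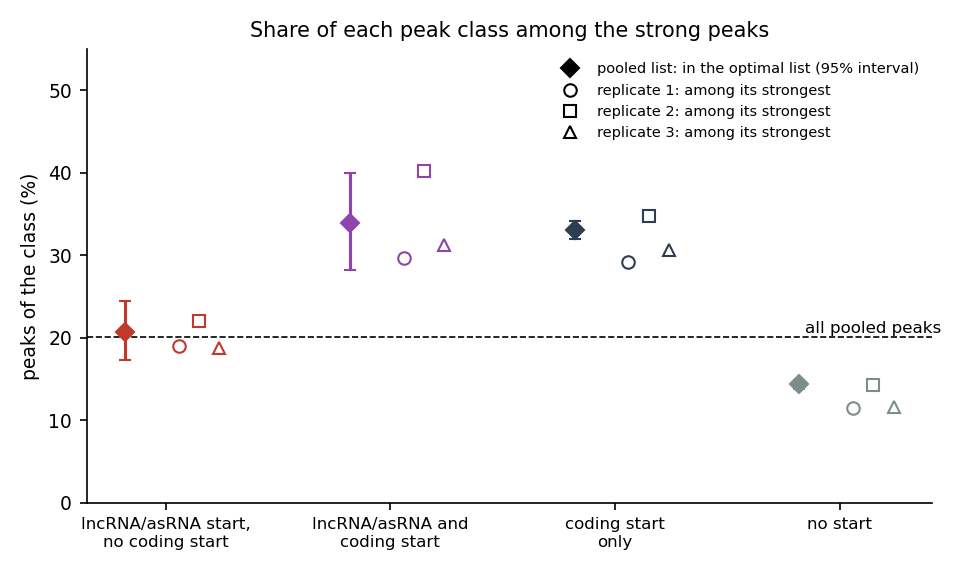
Share of each peak class among strong peaks. The vertical axis is the percentage of the peaks of a class; diamonds give the share of pooled peaks in the optimal list with exact 95% intervals, open circles, squares and triangles the share of each replicate's own peaks among its strongest 4941, and the dashed line the 20.1% of all pooled peaks. In the pooled list stand-alone peaks lie near the line. The line does not apply to the replicates, where 16.5%, 20.1% and 17.0% of all peaks were among the strongest and stand-alone peaks lie above that share. Shared peaks lie nearer to the peaks at coding starts only than to stand-alone peaks, in the pooled list and in every replicate.

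The same order was found when the rule was applied to each replicate's own list. Among the strongest 4941 peaks of replicates 1, 2 and 3, which made up 16.5%, 20.1% and 17.0% of all their peaks, were 19.0%, 22.0% and 18.7% of the stand-alone peaks (19.9% ± 1.81, SD, n = 3). Of the shared peaks, 29.7%, 40.3% and 31.3% were among them (33.7% ± 5.71), and of the peaks at coding starts only 29.2%, 34.8% and 30.7% (31.6% ± 2.90). Stand-alone peaks were thus below both other classes in all 3 replicates, and the ranges did not overlap. The difference from shared peaks was -13.8 ± 3.97 percentage points and that from peaks at coding starts -11.7 ± 1.32 (exact sign-flip permutation test over 3 replicates, two-sided, p = 0.25 for each, the smallest it can give, adjusted p = 0.25 over 8 comparisons).

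Median signal followed the same order. For stand-alone peaks it was 15.99, 18.7 and 16.4 in replicates 1, 2 and 3, for shared peaks 21.6, 26.9 and 22.4, and for peaks at coding starts only 20.7, 24.1 and 21.1. The stand-alone median was 0.740, 0.694 and 0.731 times the shared one (mean 0.722 ± 0.0241, n = 3). Against peaks at coding starts only it was 0.774 ± 0.000377 times as high, and against peaks at no start 1.09 ± 0.00372 times. Shared peaks were 1.07 ± 0.0359 times as strong as peaks at coding starts only. Each of these 4 ratios lay on the same side of 1 in all 3 replicates, and each had an exact sign-flip p of 0.25, adjusted p 0.25, the smallest possible with 3 replicates.

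The order of the medians was not kept when only the strong peaks of each class were compared. With each replicate cut to its strongest 4941 peaks, the stand-alone median was 1.10 times the shared median, the opposite direction. Within the optimal list the median pooled signal was 199 for stand-alone peaks, 156 for shared peaks, 188 for peaks at coding starts only and 170 over all. The strongest 2470 of all 4941 optimal peaks included 61 of the 106 stand-alone peaks and 40 of the 90 shared peaks. They also included 1288 of the 2332 optimal peaks at coding starts only. Out of whole classes these were 11.9% of the 511 stand-alone and 15.1% of the 265 shared peaks, and 1288 of the 7060 at coding starts only. The stand-alone share thus remained the lowest at this stricter cut. A smaller share of stand-alone peaks than of shared peaks or peaks at coding starts only was in the optimal list. Within that list the stand-alone median, 199, was above the medians of both those classes, a difference that was not tested.

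**Figure D2:**
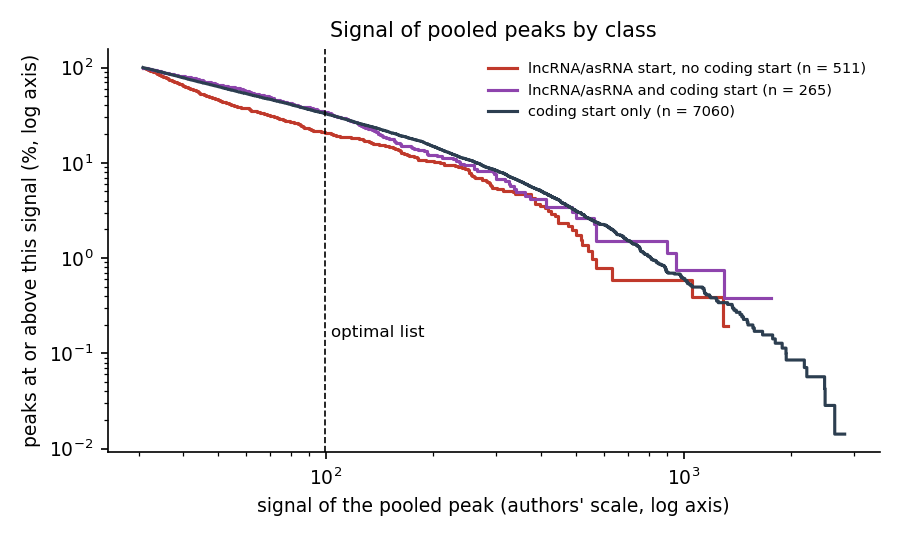
Signal of pooled peaks in 3 classes. The horizontal axis is the authors' signal and the vertical axis the percentage of the class at or above it, both on log axes, and the dashed line is the lowest signal in the optimal list (99.55). The stand-alone curve lies below the other curves over the weak and middle signals and comes closer to them toward the strong end.

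Presence in the replicates separated the classes in the same way. A replicate peak overlapped the pooled peak by at least 1 bp in all 3 replicates for 270 of 511 stand-alone peaks (52.8%) and 193 of 265 shared peaks (72.8%), beside 51.9% of all pooled peaks and 69.7% of those at coding starts only. The pooled list was called on the same replicates, so this is a description of the lists. Outside the optimal list, 164 of 405 stand-alone peaks (40.5%) and 104 of 175 shared peaks (59.4%) were found in all 3, beside 39.9% of all peaks outside it. In the optimal list, all 106 stand-alone and 89 of 90 shared peaks were found in all 3 replicates, beside 99.7% of all optimal peaks. No replicate peak overlapped 5 stand-alone peaks and 1 shared peak, beside 412 of all 24641 pooled peaks.

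Counted by gene, 672 of the 2447 annotated lncRNA and asRNA genes (27.5%) had a peak near a start and 187 (7.64%) had one from the optimal list. For the 13945 protein-coding genes these shares were 49.7% and 22.5%. By kind, 507 of 1944 lncRNA genes (26.1%) and 165 of 503 asRNA genes (32.8%) had a peak, with 140 (7.202%) and 47 (9.34%) of them having one from the optimal list. The presence of a neighbouring coding start went with a larger difference than the kind of RNA gene. Of the 443 lncRNA and asRNA genes with a coding start within 500 bp of a start of their own, 199 (44.9%) had a peak and 74 (16.7%) an optimal one, whereas of the 2004 others 473 (23.6%) and 113 (5.64%) did. A single peak was found at 558 genes, 2 at 103, 3 at 9 and 4 at 2, asRNA:CR45270 and lncRNA:CR43334. Nearly all peaks reached 1 such gene (756 of 776), 18 reached 2, 1 reached 3 and 1 reached 4.

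Among stand-alone peaks, 435 were at lncRNA starts and 76 at asRNA starts, and 94 (21.6%) and 12 (15.8%) of these were in the optimal list, beside 20.1% of all peaks. Among shared peaks, 52 of 145 at lncRNA starts (35.9%) and 38 of 120 at asRNA starts (31.7%) were in it. Within each kind, peaks with a coding start nearby had the higher share.

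The summits of stand-alone peaks were not centred on the annotated starts. Their median position was -3.00 bp from the start, with quartiles at -208 and 276 bp, and 259 of 511 (50.7%) lay upstream. Within 100 bp of the start were 108 summits (21.1%), where an even spread over the 1001-bp window would place 20.1%. Peaks at coding starts only had a median of -73.0 bp, with 70.1% upstream and 40.5% within 100 bp. Stand-alone peaks of the optimal list showed no more centring: their median was -72.5 bp, 60 of 106 (56.6%, interval 46.6 to 66.2) were upstream and 15 (14.2%) were within 100 bp. The strong peaks at coding starts only had a median of -108 bp, with 86.2% upstream and 40.7% within 100 bp. Up to 200 bp upstream of the start lay 129 of the 511 stand-alone summits (25.2%) and 47.4% of those at coding starts only. Stand-alone summits were thus spread widely over the window, with a much weaker gathering just upstream than at coding starts.

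The replicates showed the same difference in position. The median stand-alone summit was at 9, -16 and 5 bp in replicates 1, 2 and 3 (-0.67 ± 13.4, SD, n = 3), and the median summit at coding starts only at -58, -77 and -66 bp (-67.0 ± 9.54). The stand-alone median was therefore 67, 61 and 71 bp farther downstream. The share upstream was 50.4% ± 1.27 for stand-alone peaks and 67.2% ± 2.51 for peaks at coding starts only, a difference of -15.1, -17.9 and -17.3 percentage points. The groups did not overlap in either measure, and each difference had an exact sign-flip p of 0.25, adjusted p 0.25, the smallest possible over 3 replicates. Stand-alone asRNA starts leaned upstream more than lncRNA starts, with 47 of 76 summits (61.8%, interval 49.98 to 72.8) against 212 of 435 (48.7%, 44.0 to 53.5); these intervals overlap and the difference was not tested.

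Shared peaks lay more often upstream of the coding start than of the RNA start. Measured from the coding start, their median position was -102 bp and 190 of 265 (71.7%) lay upstream, close to the peaks at coding starts only. Measured from the lncRNA or asRNA start, the median was -46.0 bp and 147 (55.5%) were upstream. The summit was nearer to the coding start for 156 peaks (58.9%), nearer to the RNA start for 101 and equally far for 8. Of the 90 in the optimal list, 75 (83.3%) were upstream of the coding start and 52 (57.8%) upstream of the RNA start. Over the replicates the median from the coding start was -91, -111 and -106 bp (-103 ± 10.4), and 71.0% ± 1.35 of shared peaks were upstream of it.

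**Figure D3:**
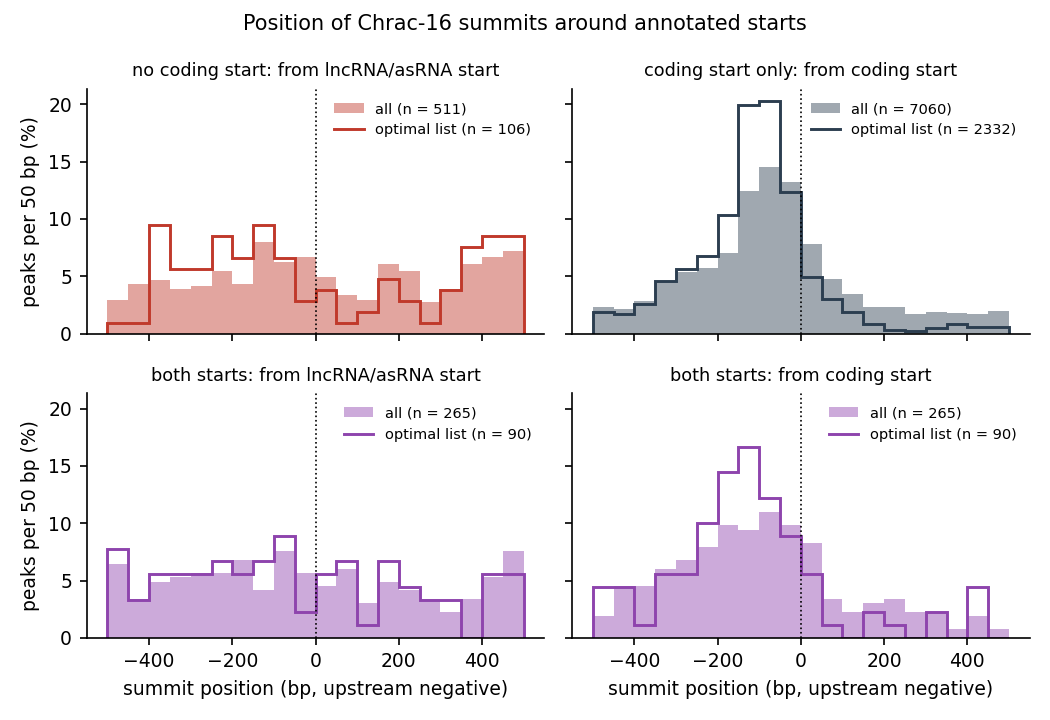
Position of summits around annotated starts. The horizontal axis is the distance from the start in bp, negative upstream in the direction of transcription, and the vertical axis the percentage of the peaks of a panel per 50 bp; filled areas are all pooled peaks of the class and outlines those in the optimal list. Peaks at coding starts, shared or not, pile up just upstream, whereas positions measured from lncRNA or asRNA starts are spread more evenly over the window.

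The starts of shared peaks were mostly head to head, that is, transcribed away from each other. This held for 152 of 265 (57.4%), and the summit lay between the starts in 96 of these (63.2%). Another 76 had overlapping genes on opposite strands and 37 had starts on the same strand. In the optimal list were 53 of the head-to-head peaks (34.9%, interval 27.3 to 43.0), 22 of those with overlapping genes (28.9%, 19.1 to 40.5) and 15 of those on the same strand (40.5%, 24.8 to 57.9). Beside these stand the 20.1% of all pooled peaks and the 33.0% of peaks at coding starts only, and the intervals of the 3 arrangements overlap. In the overlapping arrangement the median summit lay at -11.0 bp from the coding start and 297 bp downstream of the RNA start.

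Most stand-alone peaks lay between coding genes. There were 330 of 511 (64.6%) outside any coding gene, 145 (28.4%) in an intron and 36 (7.05%) in an exon of one, whereas peaks with no start nearby were mostly intronic (55.3%) and lay outside coding genes in 29.5%. The share in the optimal list was 21.8% outside coding genes (72 of 330) and 22.8% in introns (33 of 145), and 1 of 36 exonic peaks was in it (2.78%, interval 0.0703 to 14.5). The 31 exonic peaks of RNA genes antisense to the exon held 0 optimal peaks, a count that allows a share of up to 11.2% by the exact interval. Peaks with no start showed the same low share in exons (2.61%), and 15.5% outside coding genes and 17.0% in introns.

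The distance to the next coding start did not order the stand-alone peaks simply. With a coding start at 501 to 1000 bp, 12 of 91 were in the optimal list (13.2%, interval 7.00 to 21.9), at 1001 to 5000 bp 61 of 249 (24.5%, 19.3 to 30.3), and from 5001 bp on 33 of 171 (19.3%, 13.7 to 26.0). For peaks with no start the same distances gave 16.6%, 14.4% and 13.5%. In the nearest group the interval of stand-alone peaks included the share of peaks with no start, at 1001 to 5000 bp it lay above that share, and from 5001 bp on its lower end, 13.67%, was just above the 13.53%.

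Over the arms, 3L held the most stand-alone peaks (133, or 26.0%) and had one of the lower shares in the optimal list, 21 of 133 (15.8%). On 2R and 2L the shares were 27.0% and 26.6%, on X 20.3% and on 3R 17.9%. Of all pooled peaks on 3L, 2R, 2L, X and 3R, 19.6%, 18.9%, 19.99%, 21.6% and 20.7% were in it, so 2R and 2L lay above their arm's share and the other 3 below. The counts per arm are small, no intervals were computed for them, and these differences were not tested. Chromosome 4 held 10 stand-alone peaks, too few for a share. The X held 12.5% of stand-alone peaks and 17.3% of all pooled peaks.

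The 12 strongest stand-alone peaks, chosen by pooled signal, were all in the optimal list, which follows from that choice. All had a peak in every replicate, as had 99.7% of all optimal peaks. The strongest, at lncRNA:CR44619 (FBgn0265830, chrX:12752170-12752534), had a pooled signal of 1331, rank 36 of the pooled list, and values of 519, 396 and 418 in replicates 1, 2 and 3. Its summit lay 486 bp inside the gene and the nearest coding start, of CG4004, was 6036 bp away. The second, at lncRNA:CR31044 (FBgn0051044, chr3R:29214251-29214614), had 1286, with 441, 405 and 430 in the replicates. Its summit was 111 bp upstream of the start, and the nearest coding start, of the translation elongation factor gene eEF1gamma, was 5721 bp away. The third, at lncRNA:CR44339 (FBgn0265427, chr2R:12985031-12985385), had 1058, with 348, 342 and 369 in the replicates. The start of Psc, a Polycomb group gene, lay 4229 bp from it. These 3 stood well above the rest and were about as strong in each replicate.

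The fourth strongest, at lncRNA:CR44676 on 3L (FBgn0265887), had a pooled signal of 632 and 182, 207 and 242 in the replicates, its summit 386 bp downstream of the start, past the far end of this short gene. It thus lay below the first 3 in every replicate. lncRNA:CR46036 (FBgn0267703) followed with 571 in the pooled list and 212, 206 and 173 in the replicates, inside an intron of osa, a subunit of the Brahma remodelling complex, on the opposite strand. lncRNA:CR44867 (FBgn0266161), with 556 and replicate values of 193, 158 and 194, was in the same arrangement within beat-Ib. lncRNA:CR43626 on 3L had 540, with 212, 136 and 196 in the replicates.

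lncRNA:CR45668 on X had 522 in the pooled list and 156, 141 and 212 in the replicates, and its summit was 658 bp upstream of Act5C, which encodes a cytoplasmic actin. asRNA:CR44429, the only antisense gene among the 12, lay in an intron of gce, a juvenile hormone receptor gene, with 518 in the pooled list and 195, 162 and 172 in the replicates. Its summit was 530 bp upstream of a gce start, just beyond the 500 bp that would have made it shared. lncRNA:CR44380, lncRNA:CR44810 and lncRNA:CR44917 closed the list with pooled signals of 501, 490 and 476, and the lowest replicate value of the 3 was 145. The summit was upstream of the nearest start of the gene for 8 of the 12 and downstream of it for 4. Outside coding genes were 9 of the 12, and the other 3 were in introns antisense to the RNA gene.

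Among shared peaks the strongest was at lncRNA:CR44463 (FBgn0265656, chr2R:15217585-15217943), with a pooled signal of 1758, rank 15, and 573, 592 and 597 in the replicates. Its summit was 142 bp upstream of mRpL41, a mitochondrial ribosomal protein gene, and 436 bp downstream of the start of CR44463, past the far end of that short gene. asRNA:CR45928 shared a peak of 1297 with eIF6, which encodes a ribosome biogenesis factor, with 420, 449 and 428 in the replicates and its summit 102 bp upstream of eIF6. lncRNA:CR44149 and brwl shared one of 953, with 327, 301 and 324 in the replicates. In each of these the summit was upstream of the coding start and downstream of the RNA start.

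lncRNA:enrr and elav, the neuronal RNA-binding protein gene, which start at the same base of the minus strand, shared a peak of 902 with values of 277, 309 and 316 in the replicates, its summit 252 bp upstream of both. lncRNA:CR44209 and Cyt-b5 (cytochrome b5) shared 570, and lncRNA:CR44522 and Ldh (lactate dehydrogenase) also shared 570. asRNA:CR43257 and Reg-5 shared 563, and lncRNA:CR43644 and E(spl)m3-HLH, a Notch target of the Enhancer of split complex, shared the weakest of the 8, with 192, 132 and 185 in the replicates. In all 8 the summit was upstream of the coding start, at -102 to -421 bp. Of the 100 strongest pooled peaks, 3 were stand-alone and 4 shared, beside 511 and 265 of all 24641 pooled peaks.

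Of the 19 peaks at RNA genes with a name of their own, 5 were in the optimal list, beside 20.1% of all pooled peaks. The strongest stand-alone one of these was at Hsromega (FBgn0001234, chr3R:21296115-21296530), a heat-inducible nuclear RNA that organises omega speckles. It had a pooled signal of 384, rank 625, was in the optimal list, and had 142, 119 and 129 in the replicates, which are 9.07, 6.56 and 8.08 times the median of each replicate's own list. Its summit lay 196 bp inside the gene from the first start. A second pooled peak of 57.5, outside the optimal list, lay 92 bp upstream of another Hsromega start.

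The peak at flam (flamenco, FBgn0267704, chrX:21631453-21631868), the locus whose long transcript gives piRNAs that restrain gypsy elements in the somatic cells of the ovary, had 230 in the pooled list and was in the optimal list. Its replicate values were 68.9, 70.3 and 95.9, or 4.40, 3.86 and 6.02 times the list medians, and its summit was 230 bp upstream of the start. A second, weaker peak of 61.2 lay 20 bp upstream. lncRNA:TS2 with 164 and lncRNA:marge with 128 were the other named stand-alone genes in the optimal list. The marge peak was uneven, with 65.2 in replicate 1 and 36.2 and 34.4 in replicates 2 and 3.

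The peak at roX1 (FBgn0019661, chrX:3862323-3862738), an RNA of the dosage compensation complex, had 77.0, below the optimal list. Its summit was 106 bp upstream of an internal start and lay inside the gene. It was present in all replicates, with 19.5, 28.5 and 29.9, or 1.25, 1.57 and 1.87 times the list medians. roX2, its partner in the complex, had no summit within 500 bp: the nearest was 1436 bp away with a pooled signal of 189, in the optimal list. The peak at lncRNA:TS16 had 78.7 and replicate values of 27.8, 32.6 and 24.2. These were above the median of their lists and below the strong peaks.

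The remaining named genes had pooled signals of 31.1 to 53.0, around or below the median of 47.1 over all pooled peaks. The RNA genes bxd and iab8 of the bithorax complex were among them. The bxd peak had 34.4 and a replicate peak only in replicate 3 (12.3). The iab8 peak, at a gene whose transcript represses abd-A and gives rise to a microRNA, had 43.3, with 12.7, 17.0 and 12.8 in the replicates. noe had 53.0 with no overlapping peak in replicate 2, yar, which lies between the genes yellow and achaete, had 50.1, and sphinx, linked to male courtship, had 42.6. asRNA:Eig63F-2 had peaks of 35.8 and 34.3, lncRNA:osk had 34.9, asRNA:TS15 31.3 and lncRNA:Irar, near a start of the insulin receptor gene InR, 31.1. None of these was in the optimal list, and bxd and Irar each had a peak in 1 replicate. The starts nearest to the bxd, iab8 and sphinx summits were internal ones, not the outermost start of the gene.

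Besides roX2, let7C, the host of the let-7 microRNA cluster, just missed the distance with a summit at 518 bp and a signal of 37.5. acal had its nearest summit at 1480 bp with 113, in the optimal list, and cherub at 11242 bp with 31.6. The gene rgn, also looked for, was not matched in the annotation used. At the edge of the rule, summits exactly 500 bp from lncRNA:CR42721, asRNA:CR45960 and lncRNA:CR45591 had 33.9, 31.0 and 98.5. Summits at 501 bp from lncRNA:CR45618 and lncRNA:CR46322 had 364 and 147, both in the optimal list, and one at 503 bp from lncRNA:CR45695 had 34.2. At the edge of the optimal list, the weakest such peak inside was at lncRNA:CR44620 with 101 and the strongest outside at lncRNA:CR45532 with 99.5.

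**Figure D4:**
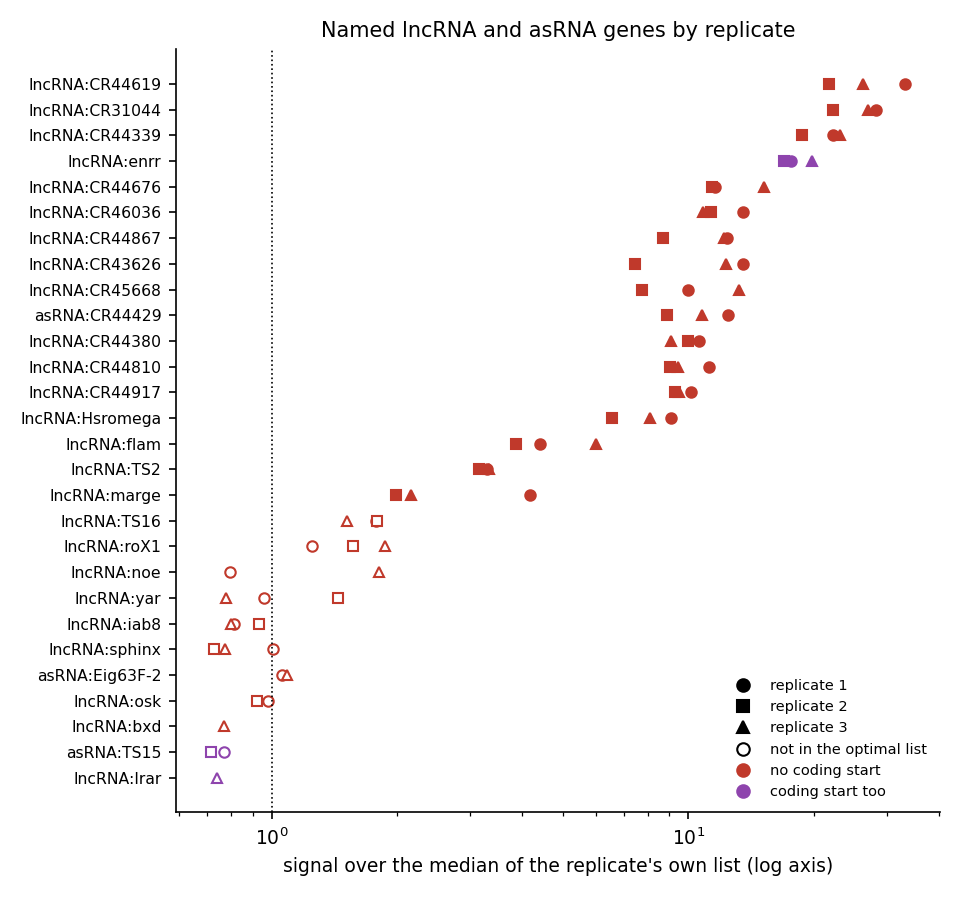
Replicate signals of the 12 strongest stand-alone peaks and of every named lncRNA or asRNA gene, strongest peak per gene. The horizontal axis is the signal of the overlapping replicate peak divided by the median of that replicate's own list, on a log axis; filled symbols are peaks in the optimal list, open symbols those outside it, and a missing symbol means that no replicate peak overlapped. Hsromega stands highest among the stand-alone genes with known roles, below the 12 strongest by pooled signal, while bxd, iab8, sphinx and osk lie near the median of the lists or below it.

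The letters under the summits differed with the presence of a coding start. In the 201-bp windows around the summit, both strands searched, CGATA was found in 95 of 511 stand-alone windows (18.6%, interval 15.3 to 22.2) and in 97 of 265 shared ones (36.6%, 30.8 to 42.7). The share was 37.2% at coding starts only, 20.2% at peaks with no start, 25.2% over all pooled peaks and 37.1% over the same windows at all 19252 protein-coding starts. In the optimal list the shares were 17.0% for stand-alone and 40.0% for shared peaks, beside 30.2% over all optimal peaks. In this respect stand-alone windows were like those with no start and shared windows like those of coding starts.

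Longer elements of housekeeping promoters followed the same split. The DRE, written TATCGATA, which contains CGATA and the reverse complement of it, was found in 4 stand-alone windows (0.783%, interval 0.214 to 1.99) and 15 shared ones (5.66%, 3.20 to 9.16), beside 6.83% at coding starts only, 0.505% with no start and 6.45% over all coding starts. The core of Motif 1, searched as GGTCACACT, was in 0 of 511 stand-alone windows, which allows a share of up to 0.719%, and in 8 shared ones (3.02%, 1.31 to 5.86). It was in 4.14% of windows at coding starts only and in 4.42% over all coding starts. These intervals of the stand-alone windows lay below the shares at coding starts for both elements.

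The TATA box letters TATAAA were more frequent in the strong stand-alone windows than in all of them. They were in 144 stand-alone windows (28.2%, interval 24.3 to 32.3) and 89 shared ones (33.6%, 27.9 to 39.6), beside 27.6% over all pooled peaks and 26.9% over all coding starts. In the optimal list they were in 47 of 106 stand-alone windows (44.3%, 34.7 to 54.3) and 37 of 90 shared ones (41.1%, 30.8 to 51.98), beside 37.6% over all optimal peaks, which both intervals include. Strong windows were also poorer in G and C, with a median of 33.3% for stand-alone and 34.1% for shared peaks of the optimal list, against 38.8% and 37.8% over all peaks of each class; the part of base composition in the TATAAA counts was not tested.

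GAGAG, the core of the GAGA factor site, was in 22.1% of stand-alone and 26.4% of shared windows, near the 22.5% of all pooled peaks. The Zelda site CAGGTAG was in 13 stand-alone windows (2.54%, interval 1.36 to 4.31) and 2 shared ones (0.755%, 0.0915 to 2.70), beside 0.998% over all pooled peaks. The other motifs searched were the E-box CACGTG, the initiator forms TCAGTT and TCAGTC, the repeats CACACACA and GAGAGAGA, CCAAT and the AP-1 site TGACTCA. They were in 0.377% to 34.0% of the windows of either class. The E-box was in 2.35% of stand-alone and 0.377% of shared windows (upper limit 2.08%), beside 2.31% over all pooled peaks. For the others, the intervals of both classes included the share over all pooled peaks. In the optimal list GAGAGAGA was in 4.72% of stand-alone (interval 1.55 to 10.7) and 5.56% of shared windows (1.83 to 12.5), beside 1.36% over all optimal peaks. These differences were not tested. A match is a run of letters and not a measured binding site. Summits in soft-masked repeat sequence made up 21.5% of stand-alone and 21.1% of shared peaks, beside 18.6% of all, and 30.2% of the stand-alone peaks in the optimal list, beside 22.4% of all optimal peaks; the part of repeats in these signals was not tested.

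**Figure D5:**
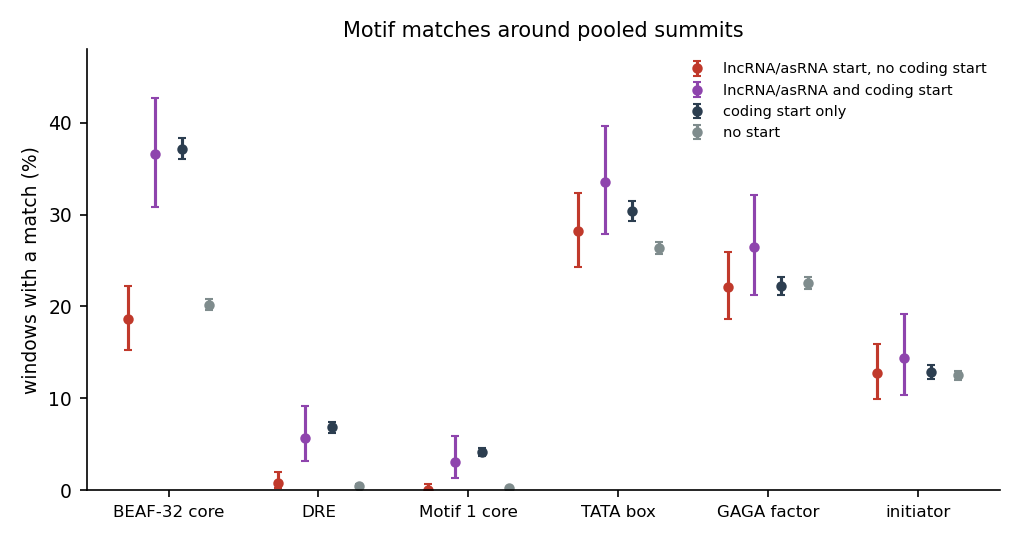
Share of 201-bp summit windows with a match to 6 named motifs. The vertical axis is the percentage of windows with a match on either strand, points are the 4 peak classes of the pooled list and bars exact 95% binomial intervals. The BEAF-32 core, the DRE and the Motif 1 core are rarer in stand-alone than in shared windows and in windows of coding starts, while the TATA box, GAGA factor and initiator points lie close together.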

How the data were processed

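ChIP-seq peak lists on dm6 were used, 1 for each of 3 replicates, 1 pooled and 1 optimal. The authors deposited for each peak a signal value (column 7), on their own scale, and a summit offset, a score in bp from the start of the peak (column 10). Per the listings deposited beside them, the relaxed lists were made as input for IDR and a control alignment entered the calling. That alignment and the dm3 lists are not analysed here. Which caller and aligner were used is not given in the sources used here.

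For the gene counts, each summit was assigned to every start within 500 bp in the Ensembl 115 annotation. Positions were measured from the nearest start of each kind, with the distance signed by the strand of the gene. How the choice of the nearest of several starts affected positions at coding starts was not tested. Sequence came from the RefSeq Release 6 genome; no peak ran past the end of an arm. Motif windows were 201 bp long. Overlap with replicate peaks needed 1 bp. Replicates were compared by an exact sign-flip permutation test, two-sided, on 8 values adjusted by the Benjamini-Hochberg method. The classification and ratios were tested on simulated lists with known answers. Python 3.11.15, numpy 2.4.6, pandas 2.3.3, scipy 1.17.1 and matplotlib 3.10.9 were used.

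Named were the genes whose symbol is not CR with digits and that had a peak (30 at most), the 12 strongest stand-alone and 8 strongest shared peaks, and 13 listed genes. The members, lists and motifs were chosen with earlier results of these data known. Alternatives changed the distance, the starts, the repeats, the merging of overlapping peaks, the list threshold, the overlap and the replicates. With 3 samples and peak lists, depth and the precision it gives are unknown.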

Additional observations from a re-analysis of the deposited data

How the results depend on the processing

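Of 54 alternative values computed for 8 results, 37 were counted as unchanged: a signal ratio on the same side of 1, a share inside the exact 95% interval of the main value, or a position or upstream share within 1 SD over the replicates. The unchanged ratios went from 0.674 with overlapping peaks merged to 0.801 with 1000 bp. With a limit of 250 bp, 40.4% of shared peaks were in the optimal list, the stand-alone median position was -34.0 bp, 57.1% of stand-alone summits were upstream and 15.7% of lncRNA and asRNA genes had a peak. With 1000 bp the position was 17.5 bp, 49.4% were upstream and 43.5% of genes had a peak. Without soft-masked summits 22.5% of genes had one. The strongest 2470 peaks of the optimal list held 13.0% of the peaks at lncRNA or asRNA starts. By class they held 11.9% of stand-alone and 15.1% of shared peaks, beside 2470 of all 24641 pooled peaks. With only the strongest peaks of each replicate, the ratio of stand-alone to shared median signal was 1.10, a reversal, and 18.6% of stand-alone peaks were found in all 3 replicates. The cause of the reversal was not tested; the lower shares follow from the shorter lists. When an overlap had to cover 0.5 of the peak, 42.9% were found in all 3. Leaving out each replicate in turn gave 60.7% to 66.7% of stand-alone peaks found in all those left, and ratios of 0.713 to 0.735, for which the smallest p is 0.5. The lists carry no depth, no control group and no expression, the annotated starts of RNA genes were not measured here, and replicate 1 has a list of exactly 30000 peaks, which may be a ceiling.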
